A study of Macaca mulatta with 136 samples.

Results

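The 9 genes described here belong to Schwann cells and the myelin of peripheral nerve: PRX, DRP2, PMP22, MBP, PMP2, MAG, EGR2, S100B and MLIP. They were taken by gene symbol from the 19422 genes of the series, and each symbol had an entry. The list was drawn up from differences already seen between the periphery and the fovea/macula of RPE/choroid (the retinal pigment epithelium with the underlying choroidal vessels), so the values of that contrast are given below as a description. Of the 9, MLIP is known as a muscle gene and S100B is also made by other glia, so the name of the set does not cover every member equally.

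The tissue came from the right (OD) and left (OS) eyes of 2 adult rhesus macaques, RM03 and RM04, taken after death and with no treatment named. Each eye gave a 2 mm punch at 4 sites (fovea/macula, perimacula, nasal and, on the temporal side, periphery), and both tissues, neural retina and RPE/choroid, were dissected from it. This gave 32 libraries of poly-A RNA, with 4 eyes for every pairing of 4 locations and 2 tissues. Levels are given in estimated counts per 1000000 counts of the library (CPM), with the eyes always in the order RM03 OD, RM03 OS, RM04 OD and RM04 OS. Because 4 eyes come from 2 animals, the tests measure the spread between these eyes, and each group rests on 2 animals.

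Schwann cells are the glia of peripheral nerves. In myelinating Schwann cells the transcription factor EGR2 switches on genes for the membrane proteins and lipids that are wrapped around the axon as compact myelin, and periaxin ties the outer face of the sheath to the basal lamina through a dystroglycan complex. The choroid is crossed by the ciliary nerves, which carry both myelinated and unmyelinated fibres, while the axons of the primate neural retina are normally without myelin until they have left the eye. Oligodendrocytes, the myelinating glia of the optic nerve and brain, share MBP and MAG with Schwann cells but not PRX.

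The libraries held between 42448903 and 78574055 estimated counts. Lanes differed by location: 5 lanes on 2 shared flow cells for the libraries of the fovea/macula, perimacula and nasal location, but 2 lanes on a separate flow cell for those of the periphery, so that the periphery and its flow cell cannot be told apart. The tissue labels were checked against rod and pigment epithelium markers. The summed level of 6 rod genes was between 3088 and 21534 CPM in retina and between 15.4 and 727 CPM in RPE/choroid. That of 5 pigment epithelium genes was between 2404 and 20123 CPM in RPE/choroid and between 269 and 2519.8 CPM in retina. The periphery library of RM03 OS was the lowest RPE/choroid library in the pigment epithelium sum, and this library recurs below.

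In RPE/choroid 8 of the 9 genes, all but EGR2, were lower in all 8 fovea/macula and nasal libraries than in 6 others. These were the 4 periphery libraries and 2 of the 4 perimacula libraries, those of RM03 OD and RM04 OS. The margin was wide for some genes and narrow for others. For PMP22 the lowest of the 6 was at 359 CPM, against at most 279 CPM at the fovea/macula and nasal location. PRX encodes periaxin, the scaffold of the Schwann cell's outer membrane. Its level was 10.3, 14.3, 18.9 and 26.5 CPM at the fovea/macula and 6.80, 10.7, 15.7 and 17.1 CPM at the nasal location. At the periphery it was 802, 2136, 101 and 185 CPM. At the perimacula PRX was at 1039.7 and 315 CPM in RM03 OD and RM04 OS, and at 15.6 and 14.7 CPM in the fellow eyes RM03 OS and RM04 OD, which is within the range of the fovea/macula. In bulk tissue more cells of a type and more RNA per cell cannot be told apart.

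DRP2 encodes a dystrophin-related protein that is bound by periaxin and joins it to dystroglycan. It had the widest range of the set. DRP2 was at 0.932, 1.03, 0.309 and 0.344 CPM at the fovea/macula, at 314, 0.659, 0.37 and 95.1 CPM at the perimacula, at 0.462, 0.736, 0.664 and 1.53 CPM at the nasal location and at 211, 561, 19.7 and 42.0 CPM at the periphery. The lowest periphery eye was 12.9 times as high as the highest fovea/macula or nasal eye. MBP and PMP22, by contrast, were at 39.1 and 122 CPM or more in every RPE/choroid library.

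The structural myelin genes PMP22, MBP and PMP2 followed the same libraries. PMP22, a membrane protein of compact peripheral myelin, was at 139, 157, 232 and 142 CPM at the fovea/macula, at 2879, 172, 227 and 721 CPM at the perimacula, at 122, 149.7, 279 and 265 CPM at the nasal location and at 1477, 3809.8, 359 and 464 CPM at the periphery. MBP, which holds the cytoplasmic faces of the membrane together, was at 77.5, 75.1, 63.2 and 69.3 CPM at the fovea/macula, at 1652, 91.6, 102 and 647 CPM at the perimacula, at 39.1, 59.6, 66.2 and 70.2 CPM at the nasal location and at 1077, 2534, 155 and 295 CPM at the periphery. For both genes the 2 lower perimacula eyes lay close to the fovea/macula, although for MBP all 4 perimacula eyes were above all 4 fovea/macula eyes. PMP2, the fatty acid-binding P2 protein of peripheral myelin, was at 2.88, 2.21, 1.5 and 1.37 CPM at the fovea/macula, at 424, 2.21, 3.43 and 138 CPM at the perimacula, at 1.73, 1.49, 1.72 and 2.72 CPM at the nasal location and at 218, 494, 14.5 and 45.6 CPM at the periphery.

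MAG, a membrane protein of the inner sheath that faces the axon, was low throughout but showed the same order. MAG was at 2.03, 1.56, 1.13 and 1.18 CPM at the fovea/macula, at 46.7, 1.62, 2.74 and 10.8 CPM at the perimacula, at 0.877, 1.28, 1.68 and 2.09 CPM at the nasal location and at 26.6, 67.7, 5.34 and 9.01 CPM at the periphery. EGR2 was the member that followed least closely. It was at 8.95, 9.27, 8.56 and 8.68 CPM at the fovea/macula, at 36, 7.10, 9.20 and 16.7 CPM at the perimacula, at 8.20, 7.35, 9.59 and 9.06 CPM at the nasal location and at 25.5, 48.7, 14.9 and 8.34 CPM at the periphery. In RM04 OS the periphery was thus no higher in EGR2 than the fovea/macula.

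S100B, a calcium-binding protein of Schwann cells and other glia, changed least between libraries after EGR2. S100B was at 22.3, 26.2, 14.8 and 15.7 CPM at the fovea/macula, at 67.2, 30.1, 24.9 and 32.6 CPM at the perimacula, at 16.8, 20.7, 16.7 and 15.5 CPM at the nasal location and at 129, 259, 56.4 and 60.9 CPM at the periphery. All 4 periphery eyes were above the other libraries except the perimacula of RM03 OD. MLIP, which encodes a lamin-interacting protein known from heart and skeletal muscle, was at 2.38, 4.27, 1.43 and 0.8 CPM at the fovea/macula, at 199.7, 4.01, 1.23 and 43.9 CPM at the perimacula, at 3.39, 3.90, 1.19 and 3.43 CPM at the nasal location and at 181, 428, 23.2 and 33.9 CPM at the periphery. MLIP therefore followed the myelin genes in RPE/choroid, while CKM and ACTA1, defining genes of striated muscle, were at no more than 0.261 and 1.5 CPM in any of the 16 libraries.

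**Figure D1:**
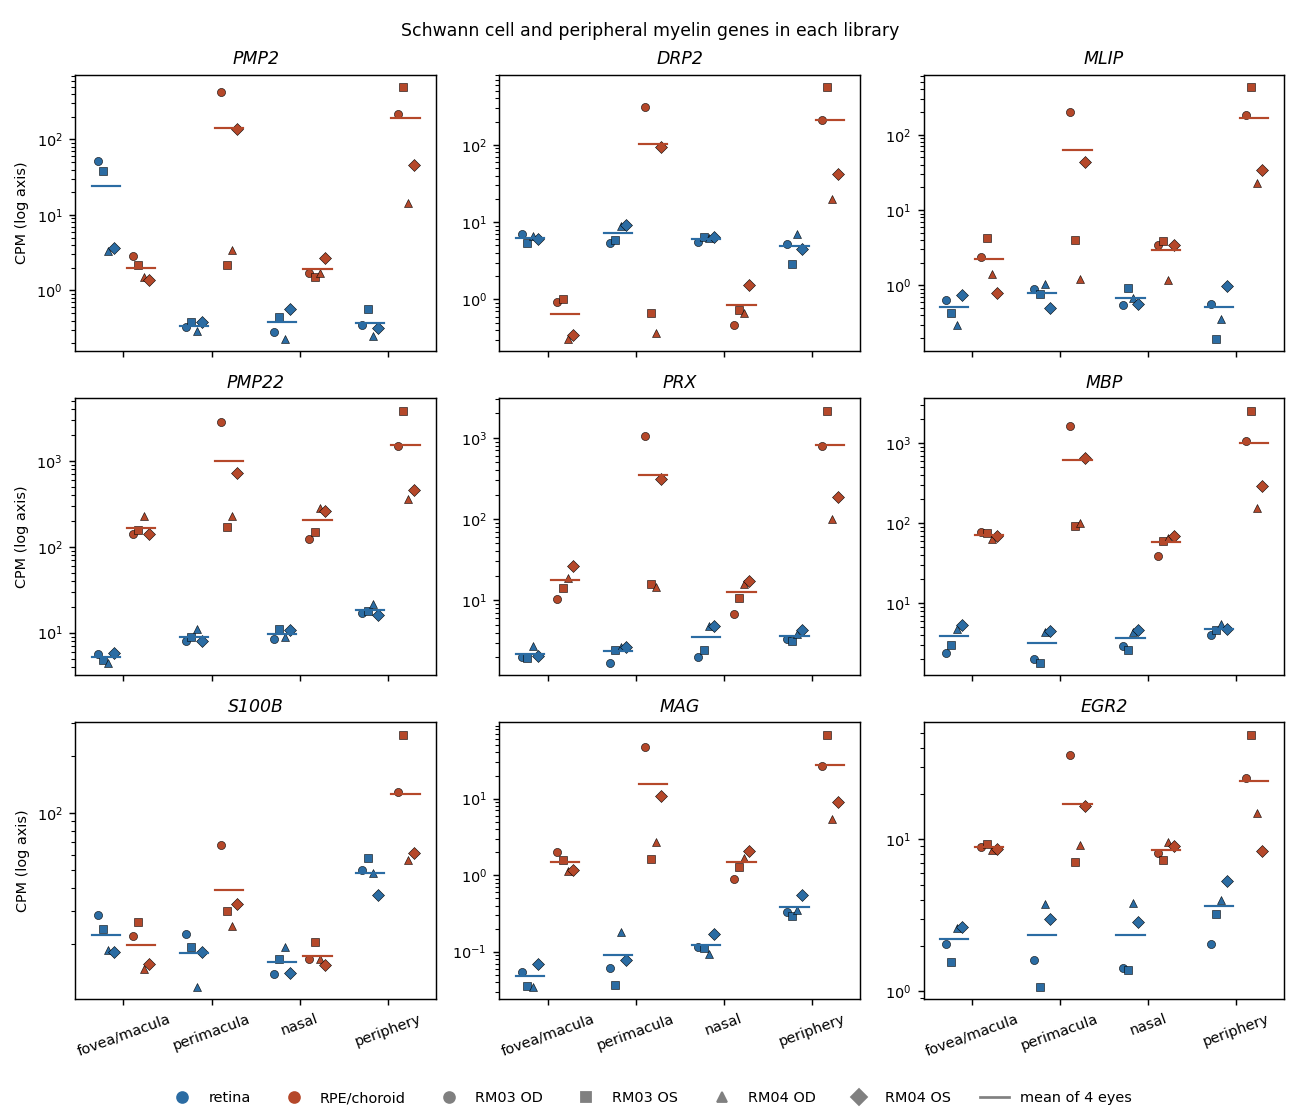
Level of each of the 9 genes in CPM, on a log axis, at 4 locations in retina (blue) and RPE/choroid (red). Symbols mark the 4 eyes and lines the mean of 4 eyes. In RPE/choroid the red symbols of RM03 OD and RM04 OS stand far above those of the fellow eyes at the perimacula, and PMP2 in retina (blue) is highest at the fovea/macula.

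The order of the locations by mean level had the periphery first and the perimacula second for all 9 genes in RPE/choroid, with the fovea/macula and the nasal location last. In 26 of 27 pairs of neighbouring locations in that order the eyes overlapped, and the exception was the perimacula above the fovea/macula for MBP. The spread within a location was of the size of the mean: PRX was 806 ± 939.9 CPM (SD, n = 4) at the periphery and 346 ± 483 CPM at the perimacula, against 17.5 ± 6.97 CPM at the fovea/macula and 12.6 ± 4.73 CPM at the nasal location. The ratio of the mean periphery level to the mean fovea/macula level was 319 for DRP2, 97.0 for PMP2, 75.1 for MLIP, 46.0 for PRX, 18.4 for MAG, 14.2 for MBP, 9.12 for PMP22, 6.39 for S100B and 2.75 for EGR2. Without the eye RM03 OS these ratios were 172 for DRP2, 48.3 for PMP2, 51.6 for MLIP, 19.5 for PRX, 9.44 for MAG, 7.27 for MBP, 4.48 for PMP22, 4.66 for S100B and 1.86 for EGR2, so that this eye moved all but S100B, MLIP and EGR2 by more than 1.5 times. Without RM04 OS the ratio for PRX was 69.8.

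That contrast chose the genes, so its calls are a count only: edgeR called 7 of the 9 as higher at the periphery than at the fovea/macula, all but PMP22 and EGR2, where 22.7% of all 15879 genes tested were called higher (21% lower, 43.7% in either direction). Without RM03 OD it called 3 of the 9, where 2730 of 15987 genes were called higher and 2858 lower. Without RM04 OS it also called 3 of the 9, where 2278 of 16020 genes were called higher and 2414 lower. All 4 periphery eyes lay above all 8 fovea/macula and nasal libraries for 8 of the 9, the exception being EGR2, which was true of 18.2% of 13816 genes with a mean of at least 1 CPM in RPE/choroid.

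The libraries in which the genes were highest were nearly the same from gene to gene. The 6 highest RPE/choroid libraries were the 4 of the periphery and the perimacula of RM03 OD and RM04 OS for 8 of the 9 genes, again all but EGR2, and 0.861% of the 13816 genes shared those 6. Of these 6, the 4 periphery libraries took part in choosing the genes, so this count and the next are descriptions only. All 9 genes were highest in the periphery of RM03 OS, as were 13.6% of the 13816 genes. In that library PRX reached 2136 CPM and RPE65, the retinoid isomerase of the pigment epithelium, was at 477 CPM. RPE65 was between 1493 and 7865 CPM in the other 15 RPE/choroid libraries, and the second lowest value was that of the perimacula of RM03 OD, the second highest library for PRX. The order did not hold for the other eyes, since RPE65 was at 4556 and 6429 CPM in the periphery of RM03 OD and RM04 OS. The part of pigment epithelium content in these levels was not tested.

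The perimacula gave a comparison between fellow eyes on shared flow cells. In RM03 the right eye was higher and in RM04 the left. In RM03 the perimacula of OD exceeded that of OS by 476 times for DRP2, 192 times for PMP2, 66.5 times for PRX, 49.8 times for MLIP, 28.9 times for MAG, 18 times for MBP and 16.8 times for PMP22, and by 5.07 times for EGR2 and 2.24 times for S100B. With 2 counts added to each gene, 7 of the 9 genes differed by at least 10-fold in this direction, as did 77 of 13816 genes, or 0.557%. In RM04 the perimacula of OS exceeded that of OD by 257 times for DRP2, 40.1 times for PMP2, 35.7 times for MLIP, 21.5 times for PRX, 6.36 times for MBP, 3.95 times for MAG, 3.18 times for PMP22, 1.81 times for EGR2 and 1.31 times for S100B. Here 4 of the 9 genes and 33 of all genes, or 0.239%, differed by at least 10-fold. Each of these is a comparison of 1 library with 1 other, with no replicate. Sums of other marker lists also differed between these eyes. The rod sum was 71.0 CPM in RM03 OD against 18 CPM in RM03 OS, and 42.8 CPM in RM04 OS against 18.2 CPM in RM04 OD. In the same order of eyes the astrocyte sum was 179 against 56.8 CPM and 56.3 against 31.4 CPM, and the fibroblast and sclera sum was 3288 against 2186 CPM and 4998 against 3205 CPM. The axon and neuron sum was 41.6 against 19 CPM and 80.6 against 59.7 CPM, and the striated muscle sum 36.3 against 29.6 CPM and 25.1 against 18.3 CPM. The smooth muscle sum was 4293 against 3598 CPM in RM03 and 3367 against 3403 CPM in RM04. The melanocyte sum was lower in those eyes, at 6425 against 7564 CPM and 4867 against 6497 CPM. The pigment epithelium, oligodendrocyte, endothelial and nerve sheath sums were lower in RM03 OD but higher in RM04 OS than in the fellow eye. The part of these cells in the levels of the 9 genes was not tested.

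At the other locations no gene differed between fellow eyes by more than 3.15 times. At the perimacula S100B in both animals and EGR2 in RM04 were within that range, and PMP22 in RM04 was near it at 3.18 times. At the fovea/macula the higher eye exceeded the lower by at most 1.79 times for any of the 9 genes, at the nasal location by at most 2.87 times, both for MLIP, and at the periphery by at most 3.15 times, for PMP2 in RM04. At the periphery of RM03 the left eye was higher for all 9 genes, by 1.91 times for EGR2 to 2.66 times for PRX, which is the opposite eye to that of the perimacula. The lanes of a library, which are repeat runs of the same RNA, were closer than the fellow eyes for PRX, which was between 999 and 1094 CPM in the 5 lanes of the RM03 OD perimacula and between 14.4 and 17.8 CPM in those of RM03 OS. Over the 115 pairs of a gene and a library at 10 CPM or more, the lanes spanned a median of 12.3% and at most 104% of their mean, the latter for PMP22 in the perimacular retina of RM04 OD.

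**Figure D2:**
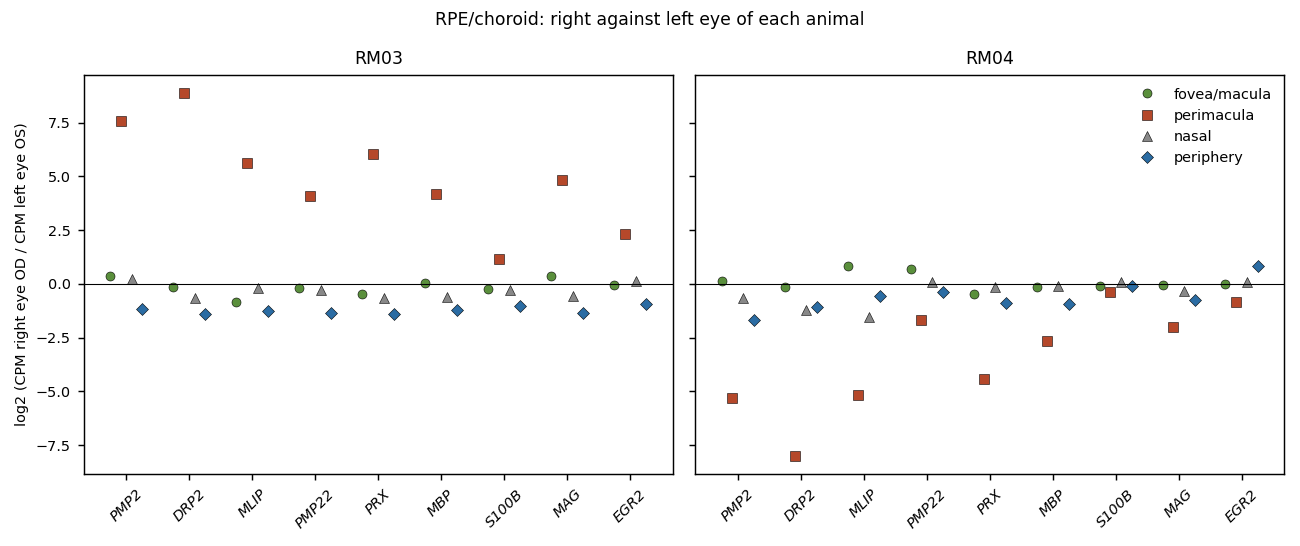
Log2 ratio of the CPM in the right eye (OD) to that in the left eye (OS) for the 9 genes in RPE/choroid of RM03 and RM04, at 4 locations. The perimacula (red squares) lies above 0 for every gene in RM03 and below 0 for every gene in RM04, up to 476 times for DRP2, while at the other locations no gene differs by more than 3.15 times and the periphery of RM03 lies below 0 for all 9.

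Not all of the genes were raised in a fixed proportion to PRX. Set against PRX in the same library, PMP22 was 5.35 to 13.5 times PRX at the fovea/macula, 14 to 18 times at the nasal location and 1.78 to 3.55 times at the periphery. MBP was 2.61 to 7.50 times PRX at the fovea/macula and 1.19 to 1.60 times PRX at the periphery. DRP2 moved the other way, at 0.0130 to 0.0902 times PRX at the fovea/macula and 0.195 to 0.263 times PRX at the periphery. At the perimacula the ratio of DRP2 to PRX was 0.302 in both RM03 OD and RM04 OS, and 0.0422 and 0.0252 in the fellow eyes. At the fovea/macula and periphery S100B was 0.593 to 2.15 and 0.121 to 0.557 times PRX, and EGR2 0.327 to 0.866 and 0.0228 to 0.147 times PRX. Relative to PRX, PMP22, MBP, S100B and EGR2 were thus lower at the periphery without overlap, and DRP2 higher. The ratios of PMP2, MLIP and MAG to PRX overlapped between these locations. PMP2 was 0.0516 to 0.279 times PRX at the fovea/macula and 0.143 to 0.272 times at the periphery. MLIP was 0.0301 to 0.299 and 0.183 to 0.229 times PRX, and MAG 0.0443 to 0.197 and 0.0317 to 0.0527 times PRX.

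Across the 16 RPE/choroid libraries each gene was ranked against the mean of the other 8, as a description in which 4 libraries share each eye. The fovea/macula and periphery libraries among them took part in choosing the genes, so high values were partly set by that choice. Spearman's rho was 0.93 for MBP, PMP2 and MAG, 0.86 for DRP2, 0.83 for PMP22, 0.79 for MLIP and S100B, 0.73 for PRX and 0.67 for EGR2. Of the 13807 other genes with a mean of at least 1 CPM, the 10 closest to the mean profile of the 9 included OAF, PPP1R1B, ARHGAP19, GAS2L3, SERINC5, KLHL3, SEPT3, LPIN1 and PLEKHA4, with rho from 0.96 for OAF to 0.89 for PLEKHA4. OAF followed the ranks but not the size of the change, with 32.7 to 56.9 CPM at the fovea/macula and 75.1 to 136 CPM at the periphery. PPP1R1B, a phosphatase inhibitor known from dopamine-responsive neurons, was between 0.396 and 0.966 CPM at the fovea/macula and between 4.28 and 79.3 CPM at the periphery. When the periphery libraries were left out, 3 of these 10 were again among the 10 closest, which were OAF, GAS2L3 and SEPT3.

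The wider set of myelin and Schwann cell genes divided by role. It held 35 other genes, of which CLDN19, NCMAP and SOX10 were not analysed here, leaving 32. The same 6 highest libraries as for PRX were found for 3 of the 32, among them FA2H and GLDN. FA2H, which makes the hydroxylated fatty acids of myelin lipids and is named here after its values were seen, was between 0.266 and 1.2 CPM in all fovea/macula, nasal and low perimacula libraries and reached 69.0 CPM at the perimacula of RM03 OD and 77.5 CPM at the periphery of RM03 OS. Of the 32 genes, 16 were highest in the periphery of RM03 OS, the library in which 13.6% of all genes were highest.

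Genes that Schwann cells express with or without myelin were present in every RPE/choroid library, and most varied less than the 9. ERBB3, the neuregulin receptor of the Schwann cell lineage, was between 463 and 782 CPM at the fovea/macula, perimacula and nasal location, and at 1032, 1002, 798 and 745 CPM at the periphery. ZEB2, a transcription factor needed for myelination, was between 240.2 and 428 CPM in all 16. NDRG1, a gene of inherited neuropathy that Schwann cells and many other cells express, was at 773 CPM at the perimacula of RM03 OD and 1283 CPM at the periphery of RM03 OS, and between 194 and 283 CPM at the fovea/macula and nasal location. CDH19, a cadherin of the Schwann cell lineage named here after its values were seen, was between 62.1 and 137 CPM in RPE/choroid and at most 0.472 CPM in retina. ERBB3, ZEB2 and NDRG1 were not particular to RPE/choroid. At the nasal location their fitted log2 fold changes over retina were 1.46, 1.96 and 0.22, against 8.65 for CDH19. CDH19 and ERBB3 had a rho of 0.35 and 0.50 with the mean profile of the 9 genes, and NGFR, the low-affinity neurotrophin receptor of non-myelinating Schwann cells, also named after the fact, had a rho of -0.03.

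**Figure D3:**
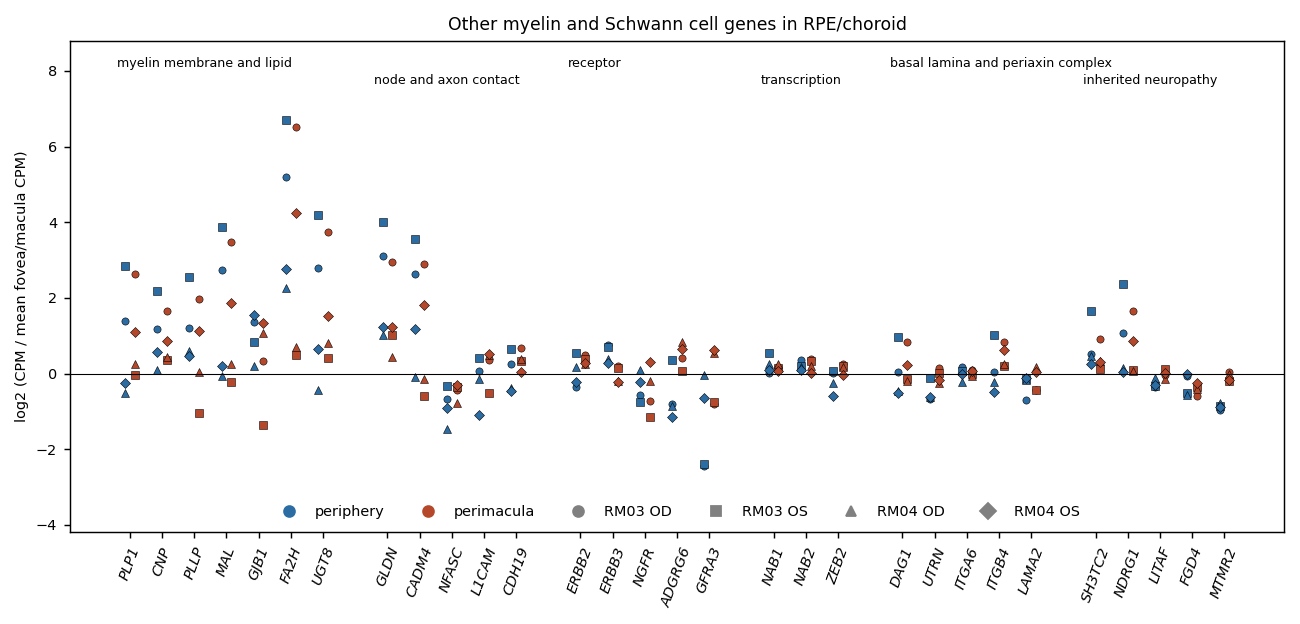
Log2 of the CPM of other myelin or Schwann cell genes over the gene's mean at the fovea/macula of RPE/choroid, for the 4 periphery (blue) and 4 perimacula (red) eyes, with genes grouped by role; POU3F1, at 0 in some libraries, is left out. FA2H reaches the highest value plotted, whereas no receptor or transcription factor plotted reaches 1 on this log2 scale. POU3F1, a transcription factor, was low but reached 3.16 CPM at the periphery, against at most 0.121 CPM at the fovea/macula and nasal location. In POU3F1, 3 periphery and 2 perimacula eyes were above all fovea/macula and nasal eyes, and the lowest periphery eye was at 0 CPM.

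Markers of other cells were set beside these values, and their part in the levels of the myelin genes was not tested. Among the oligodendrocyte genes, of which ASPA was not analysed here, MOG and MOBP were at no more than 1.64 and 4.32 CPM in any RPE/choroid library and OPALIN at no more than 0.0320 CPM, and OLIG1 and OLIG2 at no more than 0.845 and 1.67 CPM. MYRF, between 43.2 and 244 CPM, and ERMN, between 12.5 and 233 CPM, were lowest in the periphery of RM03 OS and second lowest in the perimacula of RM03 OD, and both were highest in the periphery of RM04 OS. The summed astrocyte level was highest in the perimacula of RM03 OD, at 179 CPM, where GFAP, the glial intermediate filament, was at 139 CPM. GFAP was also at 29.8 CPM in the perimacula of RM04 OS and at 48.9 and 56.7 CPM in the periphery of RM03, against 0.784 to 10.8 CPM in the other 12 libraries.

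The connective tissue, smooth muscle and melanocyte lists differed between the periphery and the other locations. The summed fibroblast and sclera level, led by DCN, COL1A2, COL1A1 and LUM, was 4756 to 9323 CPM at the periphery and 2186 to 4998 CPM at the other locations, and DCN was at 2925, 6691, 6041 and 6356 CPM at the periphery. The summed smooth muscle level, led by MYH11, ACTA2, TAGLN and CNN1, was 451 to 1755 CPM at the periphery and 2365 to 7621 CPM at the other locations. The striated muscle list, led by TTN, TNNT1, TNNT3 and MYLPF and with MYH7 not analysed here, summed to between 9.56 and 43.4 CPM, with its highest value at the periphery at 17.5 CPM.

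Melanocyte genes, with MLANA and KIT not analysed here and PMEL, EDNRB, TYR and DCT present, summed to 7657 to 9977 CPM at the periphery and 3465 to 7564 CPM at the other locations. The authors count PMEL among genes known from the pigment epithelium, so this sum does not stand for melanocytes alone. The rod sum, led by SAG, PDE6A, PDE6B and NRL, was 94.6 to 727 CPM at the periphery, with the lowest of these in RM03 OS. The pigment epithelium sum, led by RPE65, TTR, RLBP1 and LRAT, was 2404 CPM in the periphery of RM03 OS and 3694 CPM in the perimacula of RM03 OD, the lowest of all 16. Axon and neuron genes, led by SNAP25, NEFH, NEFM and STMN2, summed to 19 to 167 CPM, and the highest of these was in the fovea/macula of RM04 OD. Endothelial genes, led by VWF, PECAM1, KDR and CDH5, summed to 880 to 1907 CPM, and genes of the nerve sheaths, led by SLC2A1, ITGBL1, SOX9 and ETV1, to 435 to 1289 CPM. The lowest nerve sheath sums were in the periphery of RM04 OD and RM03 OS. In retina the same genes summed to 358 to 622 CPM, so this list is not particular to RPE/choroid.

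**Figure D4:**
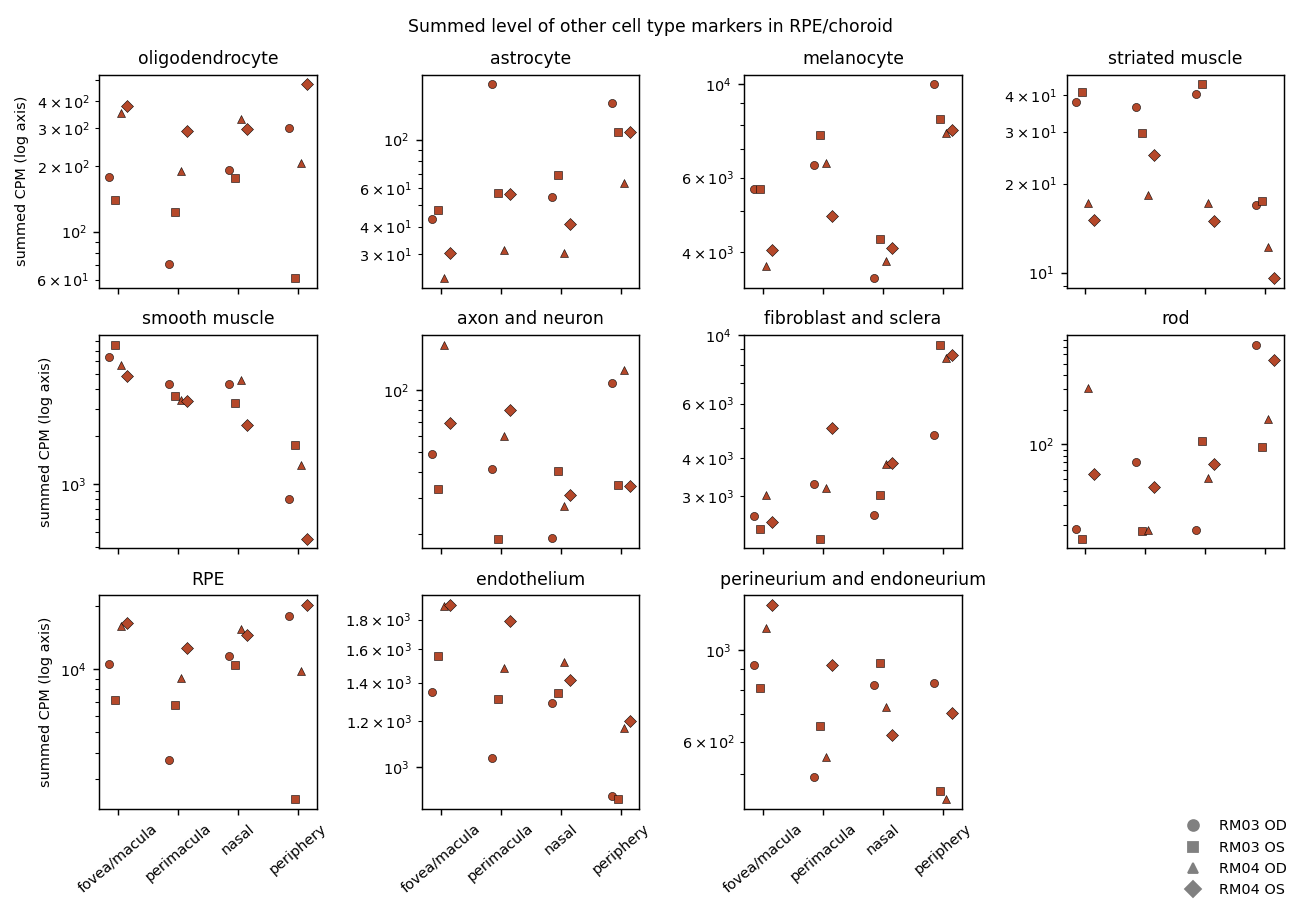
Summed CPM, on log axes, of 11 marker lists in the 16 RPE/choroid libraries, by location and eye. The pigment epithelium sum is lowest in the periphery of RM03 OS at 2404 CPM, and the smooth muscle sum is lower at the periphery than elsewhere.

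The perimacula and the nasal location of RPE/choroid were sequenced on the same flow cells. The perimacula mean was higher for all 9 genes, but with 2 high and 2 low eyes the difference passed the test for PMP2 alone. PMP2 had a fitted log2 fold change of 5.73 (SE 1.44), with an adjusted p of 0.0463 in edgeR with Benjamini-Hochberg adjustment and all 4 eyes higher. With the eye as a block its adjusted p was 0.109 in edgeR, and over all alternatives the adjusted p lay between 8.83e-05 and 0.313. For DRP2 the fitted log2 fold change was 6.40 (SE 1.69) with an adjusted p of 0.0571 in edgeR, and 2 of 4 eyes were higher. For MLIP, MBP and PRX the fitted log2 fold changes were 3.90, 3.05 and 4.38, and their edgeR adjusted p values were 0.0756, 0.0780 and 0.0821. MAG, S100B, PMP22 and EGR2 had edgeR adjusted p values from 0.109 to 0.391. The count of 1 of 9 stands beside 3.07% of the 15789 genes tested, of which 1.89% were called higher and 1.17% lower at the perimacula, and was 0 in each fit that left out an eye and 7 with DESeq2, all but PMP22 and EGR2. The median fitted log2 fold change was 3.05 for the 9 genes and 0.00 for all genes. Of the 32 other myelin and Schwann cell genes 1 was called higher at the perimacula, NAB2, by 0.35 on the log2 scale, and 2 lower, LAMA2 and FGD4, all named after their values were seen.

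The tissues were compared at the perimacula and the nasal location, where both were sequenced on the same flow cells. At the nasal location, where no eye was high, 6 of the 9 genes were higher in RPE/choroid than in retina and 1, DRP2, was lower. PMP22 was at 8.46, 11, 8.8 and 10.8 CPM in nasal retina, MBP at 2.88, 2.62, 4.35 and 4.68 CPM and MAG at 0.116, 0.113, 0.0922 and 0.172 CPM, and for these genes no retina eye reached the lowest RPE/choroid eye. The fitted log2 fold changes were 4.62 (SE 0.73) for PMP22, 4.19 (SE 0.79) for MBP and 2.06 (SE 0.50) for EGR2. Their edgeR adjusted p values were 2.44e-06, 3.01e-05 and 0.000652. MAG, at no more than 0.172 CPM in nasal retina, passed the filter on low counts through other libraries. Its fitted log2 fold change of 3.82 (SE 0.87) is therefore a description without a p value, although MAG enters the counts of genes called. The background of the comparison was 76.2% of 16382 genes called in either direction with 38.6% called higher and 37.6% lower in RPE/choroid.

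Of the other nasal differences, all but that of S100B were close to the threshold in the fit of all 32 libraries. That fit holds 8 groups of tissue and location with a shared estimate of the spread, so its p values do not measure the nasal spread alone. DRP2 was at 5.47, 6.38, 6.18 and 6.40 CPM in nasal retina, above every nasal RPE/choroid eye, with a fitted log2 fold change of -2.65 (SE 1.2) and an adjusted p of 0.0480 in edgeR. MLIP and PRX were higher in RPE/choroid in 4 of 4 eyes, by 2.27 and 2.03 on the log2 scale, with edgeR adjusted p values of 0.0420 and 0.0458. PMP2, also higher in 4 of 4 eyes, had a fitted log2 fold change of 2.70 and an adjusted p of 0.0520 in edgeR. With the eye as a block, the edgeR adjusted p values were 0.0546 for DRP2, 0.0549 for MLIP, 0.0550 for PRX and 0.0480 for PMP2, so that 5 of the 9 genes were called. Over all settings, in edgeR or DESeq2, the adjusted p values ran from 6.47e-05 to 0.135 for DRP2 and from 0.00049 to 0.172 for MLIP. They ran from 4.44e-06 to 0.137 for PRX and from 0.000224 to 0.136 for PMP2. DESeq2 and the edgeR fit of the compared groups alone each called 8 of the 9 genes. S100B was at 13.9, 16.8, 19.5 and 14.1 CPM in nasal retina and did not pass the test, with a log2 fold change of 0.26 (SE 0.29) and an adjusted p of 0.427 in edgeR.

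At the perimacula all 9 genes were called higher in RPE/choroid, where 39.0% of the 16382 genes were (37.7% were called lower and 76.7% either way), and 8 of them were higher in 4 of 4 eyes. DRP2 was the exception. It was at 5.31, 5.80, 8.83 and 9.23 CPM in perimacular retina, which is below the RPE/choroid of RM03 OD and RM04 OS at 314 and 95.1 CPM and above that of the fellow eyes at 0.659 and 0.37 CPM. Its fitted log2 fold change was 3.71 (SE 1.14) with an adjusted p of 0.00477 in edgeR, and without RM03 OD the adjusted p was 0.166. Apart from MAG, the other fitted log2 fold changes ran from 1.14 (SE 0.29) for S100B to 8.61 (SE 1.36) for PMP2, with edgeR adjusted p values of 0.000972 or smaller. MAG, near the limit of detection in retina, passed the filter on low counts through libraries outside perimacular retina. Its call and its part in the median are therefore descriptions only. The median over the 9 genes was 6.82, against 0.01 over all genes, and 2.20 over the 32 others, of which 26 were called higher and 2 lower. Among those, CDH19 differed by 9.04 (SE 0.34) on the log2 scale, with an edgeR adjusted p of 1.98e-18.

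**Figure D5:**
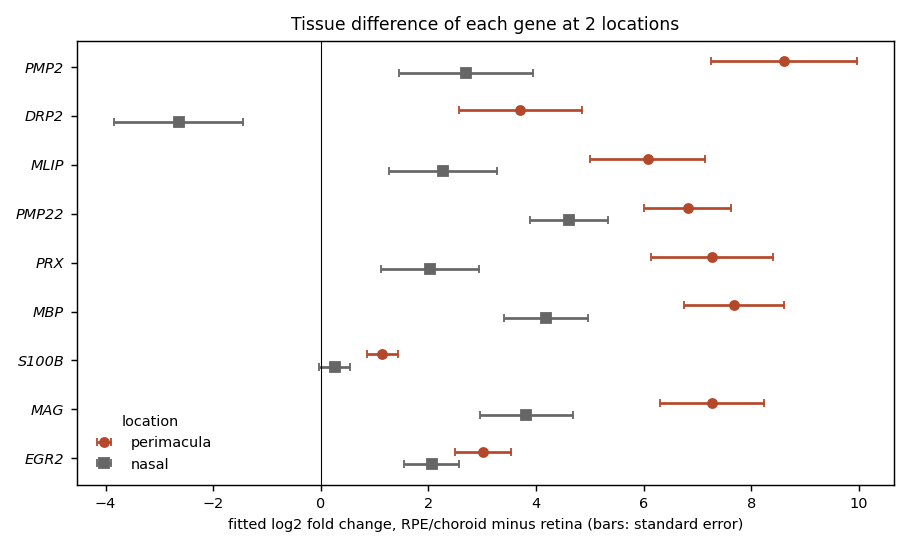
Fitted log2 fold change of RPE/choroid over retina for the 9 genes at the perimacula (red circles) and the nasal location (grey squares), with bars for the standard error. All perimacular values lie above 0, from 1.14 for S100B to 8.61 for PMP2, and DRP2 lies below 0 at the nasal location. MAG is shown as a description only.

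In the neural retina the genes did not move together. PMP2 was the one that was highest at the fovea/macula, at 51.3, 38.0, 3.32 and 3.70 CPM. It was at 0.326, 0.377, 0.286 and 0.38 CPM at the perimacula, at 0.283, 0.448, 0.229 and 0.568 CPM at the nasal location and at 0.352, 0.575, 0.252 and 0.318 CPM at the periphery. Both eyes of RM03 were thus far above those of RM04 at the fovea/macula, and every fovea/macula eye was at least 6.52 times as high as the same eye elsewhere. Compared with the fovea/macula, the fitted log2 fold change of PMP2 was -5.46 (SE 0.67) at the perimacula, -5.41 (SE 0.69) at the nasal location and -5.46 (SE 0.65) at the periphery, with edgeR adjusted p values of 0.000174, 1.40e-05 and 1.41e-05. PMP2 at the fovea/macula was also the only case among the 9 genes, besides DRP2, in which the retina was above RPE/choroid in 4 of 4 eyes, by 12.1 times in the mean.

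PMP22 moved in the opposite direction and was lowest at the fovea/macula of the retina. It was at 5.60, 4.78, 4.46 and 5.74 CPM there, at 7.90, 8.81, 11 and 7.96 CPM at the perimacula and at 17.1, 18.1, 21.5 and 16.1 CPM at the periphery. The fovea/macula and the periphery did not overlap with any other location. The fitted log2 fold change from the fovea/macula was 0.78 (SE 0.14) at the perimacula, 0.89 (SE 0.14) at the nasal location and 1.76 (SE 0.14) at the periphery, with edgeR adjusted p values of 0.00159, 7.88e-05 and 8.07e-07.

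S100B was highest at the periphery of the retina, at 49.6, 57.9, 47.7 and 36.4 CPM, against 28.6, 24.2, 18.6 and 18.2 CPM at the fovea/macula. The fitted log2 fold change was 1.05 (SE 0.15) with an adjusted p of 5.82e-05 in edgeR. In 3 of 4 eyes the nasal level of S100B was the lower one, with a log2 fold change of -0.48 (SE 0.18) with an adjusted p of 0.0332 in edgeR, and the call was lost without RM03 OD, RM03 OS or RM04 OS. The summed level of 5 astrocyte markers in retina at the fovea/macula was 339 to 418 CPM, and it was 615 to 745 CPM at the nasal location and 588 to 985 CPM at the periphery. The part of astrocyte content in the S100B level was not tested.

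PRX and EGR2 were low in retina and somewhat higher at the periphery. PRX was at 1.99, 1.92, 2.75 and 2.06 CPM at the fovea/macula and at 3.34, 3.10, 3.87 and 4.35 CPM at the periphery, with a fitted log2 fold change of 0.68 (SE 0.14) and an adjusted p of 0.000915 in edgeR. EGR2 was at 2.04, 1.56, 2.62 and 2.66 CPM at the fovea/macula and at 2.05, 3.25, 3.97 and 5.35 CPM at the periphery, with a fitted log2 fold change of 0.62 (SE 0.22) and an adjusted p of 0.0259 in edgeR, and this call was lost without RM03 OS, RM04 OD or RM04 OS. In 3 of 4 eyes the nasal level of PRX was the higher one, with a log2 fold change of 0.58 (SE 0.18) with an adjusted p of 0.0130 in edgeR, and the call was lost without either eye of RM04.

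MAG was near the limit of detection in retina. Its estimated counts were 2.62, 1.95, 2.01 and 4.03 at the fovea/macula, 2.61, 1.95, 10.5 and 4.09 at the perimacula, 6.80, 6.68, 5.25 and 11.1 at the nasal location and 26, 20.2, 24.6 and 42.2 at the periphery. MAG passed the filter on low counts through its periphery libraries alone, so no test of it in retina is given. Divided by the library total, MAG was at 0.295 to 0.544 CPM at the periphery and at most 0.183 CPM elsewhere in retina. The periphery libraries, on a separate flow cell, are also those that let MAG through the filter, so this is a description only.

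DRP2, MBP and MLIP passed the test at none of the 3 locations against the fovea/macula of the retina. DRP2 was between 2.89 and 9.23 CPM, MBP between 1.80 and 5.46 CPM and MLIP between 0.195 and 1.03 CPM in the 16 retina libraries. From the fovea/macula to the periphery their fitted log2 fold changes were -0.44 (SE 0.21), 0.30 (SE 0.19) and -0.09 (SE 0.45), with edgeR adjusted p values of 0.0822, 0.180 and 0.877. In 4 of 4 eyes the perimacular level of MBP was the lower one, with an adjusted p of 0.207 in edgeR.

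With MAG set apart, 4 of the other 8 genes were called higher and 1 lower at the periphery than at the fovea/macula of the retina, where 35.7% and 31.3% of 15514 genes were (67.0% in either direction). At the perimacula 1 was higher and 1 lower, with 36.1% of all genes called in either direction, 19% higher and 17.1% lower. At the nasal location 2 were higher and 2 lower, with 52.2% of 15486 genes called in either direction, 27.2% higher and 25.1% lower. The medians of the fitted log2 fold changes of these 8 genes were 0.46, 0.04 and -0.06, against 0.05, 0.03 and 0.04 over all genes. Of the 32 other myelin and Schwann cell genes, 13 were called higher and 11 lower at the periphery, 6 and 8 at the perimacula, and 11 and 12 at the nasal location. These 3 comparisons share the fovea/macula libraries. At the periphery of the retina ERBB3 was higher by 1.29 (SE 0.08), and NDRG1 and ZEB2 were lower by -1.13 (SE 0.10) and -0.87 (SE 0.10), with edgeR adjusted p values of 2.09e-07, 1.28e-06 and 1.47e-05.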

How the data were processed

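Poly-A RNA of 2 mm punches was sequenced by the authors as paired reads on an Illumina instrument. The authors quantified each lane with Salmon 0.13 against macaque transcripts (build Mmul_8.0.1, per the submitters' processing notes), and tximport gave gene values. The 136 deposited lane files hold estimated counts per gene, scaled for transcript length and not divided by the lane total, which was between 7932259 and 39439054. Each lists 19432 entries with 19422 gene identifiers. Gene names are the authors' likely gene for each identifier, from orthology support. The punch, tissue, animal and eye come from the labels.

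Lanes were summed per library and divided by the library total for CPM. Rounded sums were tested with edgeR 4.0.16 (quasi-likelihood, TMM, filterByExpr at a minimum count of 10, R 4.3.3), with the animal as covariate. P values were adjusted by Benjamini-Hochberg across every gene in the fit and called under 0.05. Periphery, perimacula and fovea/macula of a tissue were fitted together (12 libraries), nasal comparisons within a tissue used 16 libraries and tissue comparisons all 32. The fits were tested on simulated counts. Alternatives were DESeq2 1.42.0, RLE normalization, other filters, the eye as a replicate block, no covariate, other sets of libraries and leaving out each eye. The eye pairs the libraries, since each eye gave every location and both tissues: libraries of the same eye deviated from their group means with a mean correlation of 0.591 in retina and 0.458 in RPE/choroid over 1000 genes, and fellow eyes with 0.591 and 0.494.

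The members and lists were chosen with earlier results of these data known. Named are the 9 genes, up to 4 genes of each list with the highest mean in RPE/choroid, listed genes not analysed here, and the 10 genes closest in rank to the mean profile (log2 CPM at a prior count of 2); others are named after the fact. PLLP, NAB1, TTN, TAGLN and LUM had several entries, of which the highest was used. Estimated counts of genes with close copies are uncertain. Python 3.11.15, pandas 2.3.3, numpy 2.4.6, scipy 1.17.1 and matplotlib 3.10.9 were used. Values of 1 listed gene are not reported here, although it enters the counts and medians of its list.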

Additional observations from a re-analysis of the deposited data

Results flagged for a closer look

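PRX in the retina of the fovea/macula was at 2.75 CPM in RM04 OD, far from the other 3 eyes at 1.92 to 2.06 CPM. It was the 1 group of 72 groups of 4 eyes in which a single eye stood this far from the rest, a distance that chance gives in about 1 in 20 groups.

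PMP2 moved in opposite directions in the tissues, in every eye at the periphery and in 3 eyes at the perimacula. From the fovea/macula to the perimacula the mean log2 ratio of CPM over eyes was -5.19 in retina and 3.76 in RPE/choroid, and from the fovea/macula to the periphery it was -5.12 in retina and 5.59 in RPE/choroid. In one RPE/choroid eye, RM03 OS, the perimacular log2 ratio was 0.00, so that this direction rests on 3 eyes. MBP moved in opposite directions in every eye at the perimacula, with a mean log2 ratio of -0.34 in retina and 2.15 in RPE/choroid. The retina change of MBP did not pass the test, with an adjusted p of 0.207 in edgeR and of 0.0698 or more over all settings in edgeR or DESeq2. These differences between the tissues were not tested.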

How the results depend on the processing

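Between RPE/choroid perimacula and nasal location, edgeR called 1 of the 9 genes. It was 7 with DESeq2, 2 with at least 10 counts in every library, and 0 with the eye as a replicate block, with no covariate, with the compared groups alone and in each fit without an eye (0 to 0). Over all genes the calls in this comparison were 484, and were 1247 with DESeq2, 1649 with the compared groups alone, 53 with no covariate, 269 with the replicate block and 21 to 190 without an eye. Between perimacula and fovea/macula of the retina they were 5603, and 3651 with no covariate and 3155 to 4788 without an eye. Between the tissues at the nasal location, leaving out an eye gave 4 to 5 of the 9 (7 with all eyes, MAG counted), with 11682 to 12044 of all genes. DESeq2 and the compared groups alone each gave 8 there, with 12641 and 12569 of all genes. Between periphery and fovea/macula of RPE/choroid, leaving out an eye gave 3 to 8 (7), with 4692 to 6013 of all genes. Between nasal location and fovea/macula of the retina it gave 2 to 4 (5 with MAG counted), with 6633 to 7132 of all genes, and no covariate gave 3, with 6344. The replicate block gave 5 of 9 between the tissues at the nasal location and 6 between periphery and fovea/macula of RPE/choroid, with 12464 and 6336 of all genes. It left the counts of the 3 retina comparisons and of the tissues at the perimacula as they were. Of the 10 genes closest to the mean profile, 3 were again among the closest without the periphery libraries. The cause of these differences was not tested.

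Directions turned for 5 fitted log2 fold changes, all in retina and none past the threshold. Without an eye, EGR2 ran from -0.28 to 0.083 at the nasal location and from -0.25 to 0.11 at the perimacula, and with no covariate it was 0.051 and 0.024. Without an eye, DRP2 and PRX at the perimacula ran from -0.0063 to 0.30 and from -0.0037 to 0.15, and MLIP at the periphery from -0.28 to 0.11. The 4 eyes of 2 animals limit each call, and MAG in retina rests on 1.95 to 42.2 estimated counts a library.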
